A study of Mus musculus with 6 samples.

Results

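The 10 genes described here, Tcf7, Lef1, Bach2, Satb1, Id2, Id3, Klf3, Foxo1, Foxo3 and Ets1, encode transcription factors and transcriptional regulators that are tied to the resting and naive states of T cells. They were taken by symbol from a table of 23725 genes, and all 10 were found. Their levels were compared between wild-type (WT) C57Bl/6 mice and C57Bl/6 mice that lack myelin oligodendrocyte glycoprotein (MOG KO), in Tregs, the regulatory T cells, taken from their lymph nodes. All mice, WT and MOG KO, had been immunised with MOG, and no unimmunised group is part of the comparison. Each group has 3 libraries made from 500 cells, and the labels give neither the age of the mice nor how the cells were isolated, and do not say whether the replicates are separate mice. P-values therefore measure the spread between these samples, which may in part be technical.

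A naive or resting T cell keeps its identity through a network of factors that hold back growth and effector genes. TCF-1 (from Tcf7) and LEF1 are related HMG-box factors, FOXO1 and FOXO3 are forkhead factors that AKT and SGK1 kinases push out of the nucleus, and ID2 and ID3 block the E proteins. In Tregs, such factors separate the central, lymph node resident state from the effector state, in which Tcf7, Lef1 and Bach2 are known to be lower.

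Of the 10 genes, 2 were read in every library, 6 in some libraries and 2 in none, where a gene counts as present at 10 RPM (reads-per-million of the library total) or more. Ets1 and Satb1 were present in all 6 libraries. Lef1, Klf3 and Foxo1 were each present in 5, Id2 in 4, Tcf7 in 3 and Id3 in 1, while Bach2 and Foxo3 were present in none. Of 7909 genes present anywhere, 8.9% reached that level in all 6 libraries and 8.51% in 5. The 60 values of the 10 genes fell into separate ranges, with 35 at 10 RPM or more, 24 under 3 RPM and 1 between (Foxo1 in MOG KO replicate 2). Of the values of the 7909 genes, 3.09% lay between 3 and 10 RPM. WT replicates 1, 2 and 3 had 7, 8 and 5 of the 10 genes present, and MOG KO replicates 1, 2 and 3 had 6, 4 and 5.

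**Figure D1:**
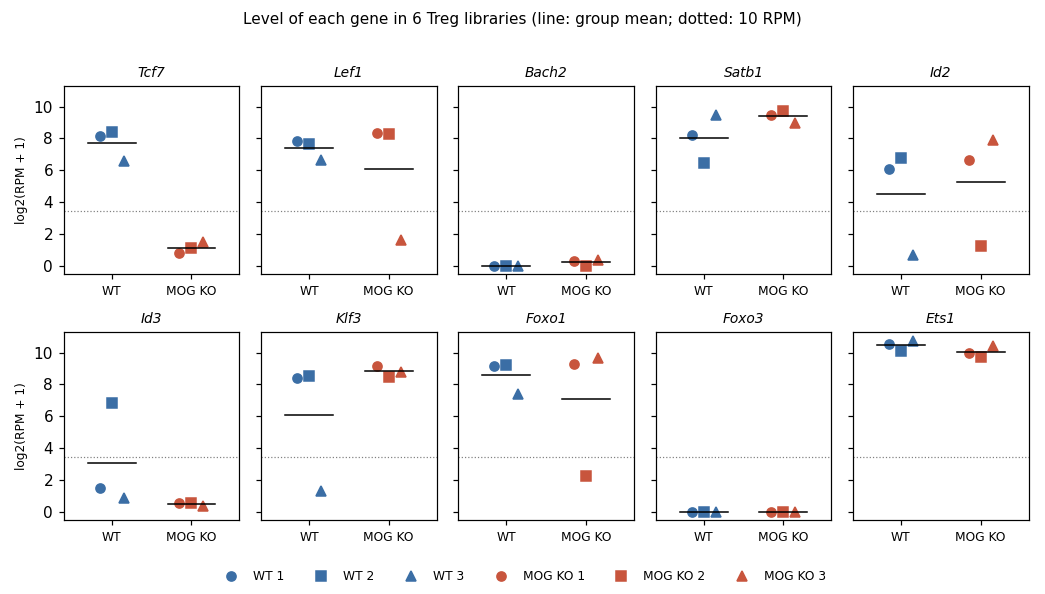
Level of each of the 10 genes as log2(RPM + 1) in the 3 WT (blue) and 3 MOG KO (red) libraries, with the symbol marking the replicate number, the black line the group mean and the dotted line 10 RPM. Tcf7 sits above the dotted line in the WT libraries and below it in the MOG KO libraries, and Lef1, Klf3 and Foxo1 each drop below it in 1 library.

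Total counts ran from 2717969 to 4472549 per library, and 2701 to 4440 genes were present. WT replicate 3 was the library with the fewest. Pearson's r between pairs of libraries ran from 0.14 to 0.23 within a genotype and from 0.13 to 0.20 between genotypes. Replicates of a genotype were thus hardly more alike than libraries of different genotypes. The markers of the labelled cell were found, with Cd4 at 170 to 722 RPM in all 6 libraries and Foxp3, the factor of the Treg lineage, at 326 to 690 RPM in 5 libraries and 8.22 RPM in WT replicate 3. Of markers of other cells, all 6 CD8 T and NK cell genes had 0 counts in every library. The 7 B cell genes summed to 0 to 206 RPM. Of these, Cd79b had 205 RPM in WT replicate 2 and 130 RPM in MOG KO replicate 2, Ms4a1 had 87.3 RPM in WT replicate 3, and Cd79a and Pax5 had 0 counts throughout. The 10 myeloid and dendritic genes summed to 22.4 to 304 RPM, of which Cd74 gave 8.5 to 280 RPM, and the 8 stromal genes to 2.27 to 461 RPM, of which Pecam1 gave 1.98 to 461 RPM. The 5 erythroid genes summed to 69.7 to 151 RPM in WT and 20.6 to 67.5 RPM in MOG KO without overlap, with Hba-a2 present in all 6 libraries. The part of these cells in the results was not tested. The deleted gene, Mog, had 1 count in all, so it does not check the genotype labels. In bulk samples, fewer cells of a type and less RNA per cell cannot be told apart.

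Between genotypes, none of the 7 genes that could be tested passed an adjusted p of 0.05 in edgeR, as was the case for all 4088 genes tested (0% called). At an unadjusted p under 0.05 there was 1 of the 7, Tcf7, against 209 of the 4088 (5.11%). The log2 fold change, MOG KO minus WT, was positive for 5 of the 7 and negative for 2, with a median of 0.22, and for the 4088 genes it was positive for 2128 and negative for 1960, with a median of 0.06. Bach2, Id3 and Foxo3 had too few reads to be tested. All 7 genes had a smaller standard error (SE) than the median gene, whose SE was 2.42 on the log2 scale.

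Tcf7 encodes TCF-1, which with LEF1 maintains naive and memory-like T cells and is the effector of WNT signals. It had 775, 1489 and 331 counts in WT replicates 1, 2 and 3 and 3, 5 and 6 counts in MOG KO replicates 1, 2 and 3. These are 285, 333 and 93.8 RPM across WT libraries, and 0.693, 1.15 and 1.74 RPM across those of MOG KO. Every WT library lay above every MOG KO library, and the lowest WT value, in replicate 3, was still far above the highest MOG KO value. The fold change was, in log2, -7.60 ± 2.28 (SE, n = 3 per group, 95% interval -12.87 to -2.34), with an unadjusted p of 0.0104 and an adjusted p = 0.602 in edgeR. Pooled over libraries, Tcf7 reads were 210 times as frequent in WT as in MOG KO, with an exact 95% interval of 125 to 385 that covers counting error only. Tcf7 passed the filter on low counts through its WT libraries alone. The summed erythroid markers were also higher in every WT library than in every MOG KO library, but at the closest by 69.7 against 67.5 RPM. Each erythroid gene alone overlapped between the genotypes. The part of these markers in the Tcf7 difference was not tested.

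Another count model, DESeq2, gave Tcf7 a log2 fold change of -7.53 ± 1.91 and an adjusted p = 0.00331. It called 744 of 4677 genes given an adjusted p, of which 473 were lower in MOG KO (10.1% of the 4677), and limma-voom gave Tcf7 an adjusted p = 0.238 and called 0 genes. Groups that do not overlap were not rare: 187 of the 4088 tested genes (4.57%) were lower in every MOG KO library than in every WT library, and 244 (5.97%) were higher in every one. The stricter pattern of Tcf7, present in all 3 WT and in 0 MOG KO libraries, was shared by 74 of 7909 genes (0.936%), and the opposite pattern by 53 (0.67%). Leaving out each library in turn gave Tcf7 values from -7.96 to -7.29. Its groups do not overlap, so leaving out 1 library could not have changed the sign.

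Lef1, the closest relative of Tcf7, was present in both genotypes. It had 229, 198 and 96.7 RPM across WT libraries, and 323, 309 and 2.03 RPM across those of MOG KO. MOG KO replicates 1 and 2 were the highest of the 6 libraries and MOG KO replicate 3 the lowest, so the groups overlapped. MOG KO minus WT, the log2 difference was 0.22 ± 1.89 (SE, n = 3 per group, 95% interval -4.19 to 4.63, adjusted p = 1 in edgeR), and it was 0.83 without MOG KO replicate 3. It turned negative without MOG KO replicate 1 (-0.16) or 2 (-0.19) and with limma-voom (-1.23). In MOG KO replicates 1 and 2 Lef1 was thus at its highest while Tcf7 was near 0. Lef1 exons share 1208 bases (13.7% of their length) with the antisense gene Gm43352, and without a stated strand setting reads of the pair cannot be told apart. The difference between the fold changes of Tcf7 and Lef1 was not tested.

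The cofactors of TCF-1 and LEF1 were mostly read in few libraries. Of 12 other TCF/LEF factors and cofactors, 1 was present in all 6 libraries (Aes, a Groucho-related corepressor) and 3 in none, and 6 were tested. None passed, 1 was positive and 5 were negative, with a median of -0.66. Axin2, a WNT target and feedback inhibitor, had 217, 53.9 and 0.283 RPM across WT libraries, and 5.78, 0.459 and 0.869 RPM across those of MOG KO (a log2 difference of -5.28 ± 2.72, adjusted p = 1 in edgeR). Axin2 was thus present in 2 WT libraries and in 0 MOG KO libraries, and WT replicate 3 was lower than all MOG KO libraries. Tle4, a Groucho corepressor, had 779, 0 and 0.283 RPM across WT libraries, and 0.693, 105 and 75.1 RPM across those of MOG KO (-2.09 ± 3.15).

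Foxo1 and Foxo3 encode forkhead factors with overlapping DNA targets. Foxo1 had 573, 593 and 166 RPM across WT libraries, and 634, 3.67 and 804 RPM across those of MOG KO. The highest and the lowest library were both MOG KO, and MOG KO replicate 2 was apart from the other 5. Its log2 fold change was 0.09 ± 1.43 (SE, n = 3 per group, 95% interval -3.25 to 3.43, adjusted p = 1 in edgeR), and it was 0.69 without MOG KO replicate 2. It turned negative without WT replicate 3 (-0.26), MOG KO replicate 1 (-0.10) or MOG KO replicate 3 (-0.53) and with limma-voom (-2.03). Foxo3 had 0 counts in all 6 libraries. At these depths a count of 0 allows up to 0.671 to 1.1 RPM (3 counts), which covers counting error only. Foxo1 shares 674 exon bases (7.78%) with the antisense gene Gm20402.

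Of the pairs of relatives among the 10 genes, Foxo1 and Foxo3 differed the most in reads, 10328 against 0, and the DNA before their RefSeq start sites is shown for that reason. Both windows run from 250 to 61 bases before the start on GRCm38.p6 and hold 190 bases, with Foxo1 at chr3:52268087-52268276 on the plus strand and Foxo3 at chr10:42276756-42276945 on the minus strand. Capitals mark the GC box GGGCGG on either strand, a motif that Sp factors can bind.
Foxo1: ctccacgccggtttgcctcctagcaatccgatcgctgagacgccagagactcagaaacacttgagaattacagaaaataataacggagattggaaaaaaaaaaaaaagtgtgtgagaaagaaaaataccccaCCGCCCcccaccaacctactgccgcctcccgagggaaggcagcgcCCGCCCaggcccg
Foxo3: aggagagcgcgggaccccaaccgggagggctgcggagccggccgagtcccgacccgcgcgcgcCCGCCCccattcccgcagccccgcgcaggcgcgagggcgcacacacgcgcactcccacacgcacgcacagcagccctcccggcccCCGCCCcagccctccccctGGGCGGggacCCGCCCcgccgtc
The Foxo1 window holds 2 GC boxes at a GC content of 53.2%, and the Foxo3 window 4 at 81.6%. Among 32851 RefSeq windows of this length and position 22.8% hold the motif. A promoter entry was found for 9 of the 10 genes (not Ets1), some with several start sites, and 6 of their 17 windows hold it. A match describes the letters and is not a site or a cause.

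Genes that set where FOXO proteins reside were read unevenly. Of 8 such genes (with Foxo4), 4 were tested, none passed, 2 were positive and 2 negative. The median of 0.58 has no stable sign, since 6 of 12 alternatives gave a negative one and the range was -0.52 to 0.97. Sgk1, the kinase that excludes FOXO1 from the nucleus, had 5.15, 0.894 and 3.12 RPM across WT libraries, and 385, 6.65 and 465 RPM across those of MOG KO (6.45 ± 2.48, adjusted p = 0.82 in edgeR). The groups of Sgk1 did not overlap, but MOG KO replicate 2, the library in which Foxo1 was lowest, was close to WT.

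Genes that FOXO1 switches on in resting lymphocytes had values in both directions. Of 13 in the list, 8 were tested, none passed, 4 were positive and 4 negative, with a median of -0.22. Klf2, a factor of T cell quiescence and trafficking, had 155, 225 and 416 RPM across WT libraries, and 222, 222 and 178 RPM across those of MOG KO (-0.46 ± 1.41). S1pr1, the receptor for exit from lymph nodes, was present throughout, at 231, 356 and 161 RPM across WT libraries, and 13.4, 32.8 and 479 RPM across those of MOG KO (-0.51 ± 1.8). Both genes were read in every library. In MOG KO replicate 2, where Foxo1 was at 3.67 RPM, Klf2 was at 222 RPM and S1pr1 at 32.8 RPM. S1pr1 was lower still in MOG KO replicate 1 (13.4 RPM), where Foxo1 was at 634 RPM. The relation of these genes to the level of Foxo1 was not tested.

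Il7r, a receptor chain for interleukin 7, was low in WT replicate 3 (7.94 RPM) and MOG KO replicate 3 (8.11 RPM) and lay between 61 and 1033 RPM elsewhere (-1.21 ± 1.82). Ccr7, a homing receptor of naive and central cells, was present only in WT replicate 3, at 243 RPM, and had 1.85 to 7.36 RPM in the other 5 libraries (-5.45 ± 2.57). Sesn1, a stress-induced inhibitor of mTORC1 signalling, had 98.6, 184 and 565 RPM across WT libraries, and 686, 533 and 492 RPM across those of MOG KO (0.88 ± 0.93). The adjusted p in edgeR was 1 for each of the FOXO1 target genes tested.

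**Figure D2:**
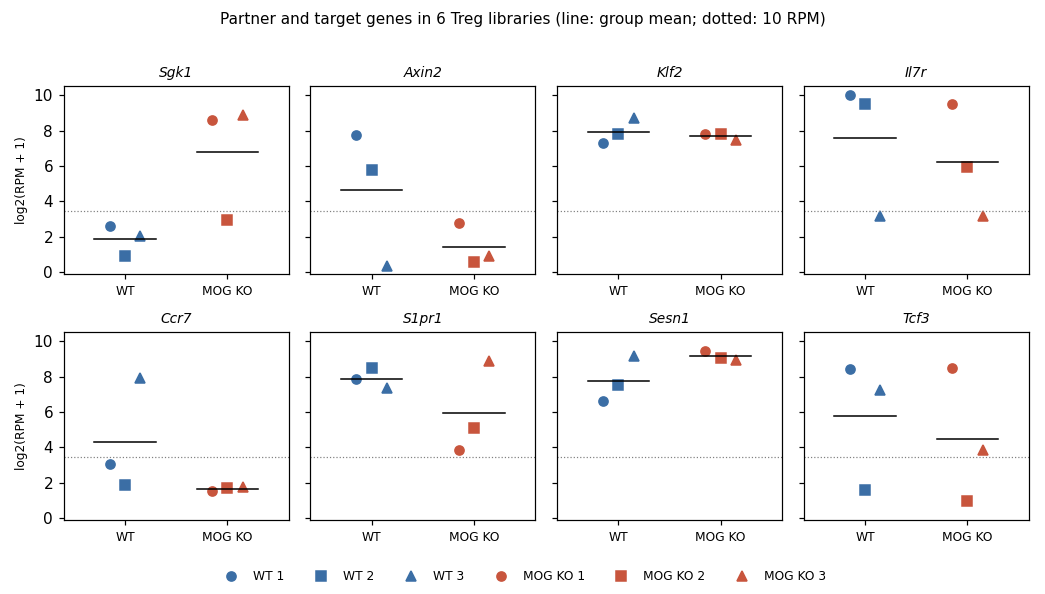
Level of 8 partner and target genes as log2(RPM + 1) in the 3 WT (blue) and 3 MOG KO (red) libraries, with the symbol marking the replicate number, the black line the group mean and the dotted line 10 RPM. Sgk1 shows no overlap between the groups, Klf2 is above the dotted line in all 6 libraries, and Ccr7 is above the dotted line in WT replicate 3 alone.

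Klf3 encodes a zinc finger repressor that acts through the CtBP corepressors. It had 340, 365 and 1.42 RPM across WT libraries, and 575, 359 and 440 RPM across those of MOG KO. WT replicate 3 alone was near 0, and the other 5 libraries lay within a narrow range in which both genotypes overlapped. On the log2 scale the change was 0.96 ± 1.6 (SE, n = 3 per group, 95% interval -2.76 to 4.68, adjusted p = 1 in edgeR) and 0.40 without WT replicate 3. Klf3 shares 404 exon bases (3.59%) with Gm20033 on the other strand. Foxp3 was low in the same library (8.22 RPM), and so was Cd3g, a chain of the T cell receptor complex (1.42 RPM against 177 to 272 RPM elsewhere). The 5 T cell marker genes summed to 720 RPM there and to 1701 to 2229 RPM in the others. Of the other Treg and T cell markers, Ctla4 (74.3 RPM), Cd4 (170 RPM) and Lck (146 RPM) were also lowest in this library. Il2ra (708 RPM), Cd3d (130 RPM) and Cd3e (273 RPM) lay within the range of the other libraries, and Ikzf2 was at its highest (1294 RPM). The part of this library's makeup in the value of Klf3 was not tested.

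Of 12 other KLF and CtBP genes, 4 were present in all 6 libraries (Klf2, Klf6, Klf13 and Ctbp1) and 6 in none. Among the 5 tested, none passed, 1 was positive and 4 were negative, with a median of -0.46. Klf10, which transforming growth factor beta induces, had 610, 90.8 and 11.1 RPM across WT libraries, and 0, 173 and 0.29 RPM across those of MOG KO (-2.02 ± 2.92). Ctbp1, the corepressor partner of KLF3, had 468, 332 and 323 RPM across WT libraries, and 282, 376 and 28.4 RPM across those of MOG KO (-0.77 ± 1.34). In WT replicate 3, where Klf3 was near 0, Ctbp1 was read at a level like that of WT replicate 2.

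Ets1, the ETS factor that supports T cell survival and Treg development, was the most evenly read of the 10 genes. It had 1520, 1109 and 1699 RPM across WT libraries, and 1006, 847 and 1379 RPM in MOG KO, a range of 2.01-fold from the lowest to the highest library. The group means were 1442.5 ± 303 and 1077 ± 273 RPM (SD, n = 3 per group), and MOG KO replicate 3 lay above WT replicate 2, so the groups overlapped. The fold change was, in log2, -0.50 ± 0.33 (SE, n = 3 per group, 95% interval -1.27 to 0.28, adjusted p = 1 in edgeR). Its SE was in the lowest 0.269% of the 4088 tested genes, and the difference was still not beyond the spread between libraries. Leaving out each library in turn gave -0.72 to -0.27.

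Of 9 other ETS-family genes, 1 was present in all 6 libraries (Elf1) and 1 in none. Among the 6 tested, none passed, 3 were positive and 3 negative, with a median of 0.14. Elf4, which restrains T cell proliferation, was chosen after its values were seen: it had 873, 362 and 6.24 RPM across WT libraries, and 868, 853 and 636 RPM across those of MOG KO (0.92 ± 1.24) and was low in WT replicate 3 as Klf3 was. Elk4, a partner of serum response factor, had 404, 245 and 215 RPM across WT libraries, and 132, 1.38 and 1.45 RPM across those of MOG KO without overlap (-2.79 ± 2.25, adjusted p = 1 in edgeR). Elf2 had 1.1, 30.6 and 0.567 RPM across WT libraries, and 0, 338 and 280 RPM across those of MOG KO (4.31 ± 3.05).

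Satb1 encodes a genome organiser that folds chromatin at T cell genes and is known to act early in Treg development. It had 292, 85 and 711 RPM across WT libraries, and 715, 848 and 503 RPM across those of MOG KO. The 2 lowest libraries were WT, but WT replicate 3 lay above MOG KO replicate 3. MOG KO minus WT, the log2 difference was 0.79 ± 0.86 (SE, n = 3 per group, 95% interval -1.22 to 2.8, adjusted p = 1 in edgeR). Without WT replicate 3, the library that makes the groups overlap, the value was 1.89, with an adjusted p = 0.609 in edgeR. Without WT replicate 2 the value was 0.36. Satb1 was high in the WT library in which Klf3 and Foxp3 were low.

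Of 9 genes of genome organisation, mostly of cohesin, 1 was present in all 6 libraries (Ctcf) and 1 in none. Among the 7 tested, none passed, 3 were positive and 4 negative, with a median of -0.71. Stag2, a cohesin subunit, had 904, 776 and 0.85 RPM across WT libraries, and 0.924, 245 and 3.48 RPM across those of MOG KO (-2.72 ± 2.52). Its relative Stag1 had 5.89, 1.34 and 0 RPM across WT libraries, and 90.6, 11 and 0 RPM across those of MOG KO (3.74 ± 2.84). Stag2 was near 0 in 1 WT and 2 MOG KO libraries, and Stag1 was present in MOG KO replicates 1 and 2 alone.

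Bach2, a repressor that competes with AP-1 factors and keeps Tregs from an effector fate, had 1 count each in MOG KO replicates 1 and 3 and 0 counts in the other 4 libraries. These values lie under the floor of 3 counts, so no fold change is given. Bach2os, an antisense gene that shares 537 bases (5.4%) of the Bach2 exons, had 0 counts.

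Id2 and Id3 encode helix-loop-helix proteins without a DNA-binding region, which hold E proteins away from DNA, and Tregs are known to need them to keep their identity. Id2 had 65.9, 110 and 0.567 RPM across WT libraries, and 100.3, 1.38 and 240 RPM across those of MOG KO. One library of each genotype was near 0, WT replicate 3 and MOG KO replicate 2. Its log2 fold change was 0.98 ± 2.34 (SE, n = 3 per group, 95% interval -4.48 to 6.43, adjusted p = 1 in edgeR), and it was -0.21 without MOG KO replicate 3. Id3 had 5, 498 and 3 counts in WT and 2, 2 and 1 counts in MOG KO. It was present in WT replicate 2 alone, at 111 RPM, and had 0.29 to 1.84 RPM in the others. Pooled reads of Id3 were 115 times as frequent in WT as in MOG KO (exact 95% interval 48.8 to 355, counting error only), and this ratio rests on WT replicate 2. All 3 WT values lay above all 3 MOG KO values, but 5 of the 6 were under 3 RPM.

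The E proteins that ID2 and ID3 bind were read in some libraries only. Of 5 genes for E proteins and the other ID proteins, 0 were present in all 6 libraries and 3 in none (Tcf4, Id1 and Id4). The 1 gene tested, Tcf3, had 349, 2.01 and 148 RPM across WT libraries, and 365, 0.917 and 13.6 RPM across those of MOG KO (-0.52 ± 2.46, adjusted p = 1 in edgeR). Tcf12 was present in MOG KO replicate 3 alone, at 133 RPM. In WT replicate 2, the library with Id3, Tcf3 was at 2.01 RPM and Tcf12 and Tcf4 had 0 counts.

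**Figure D3:**
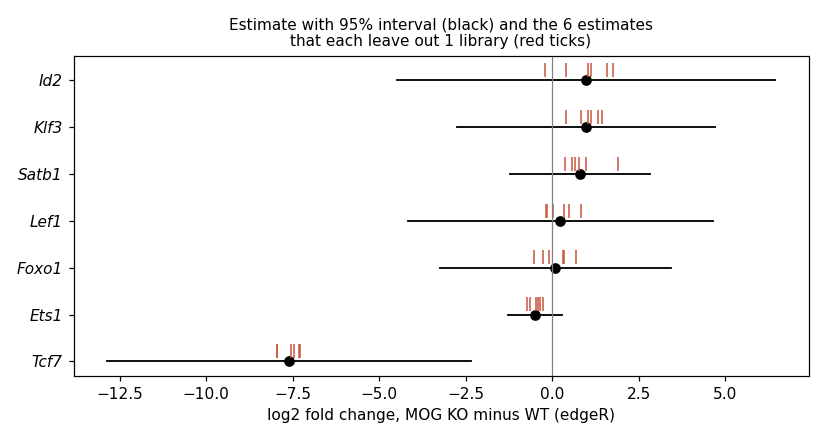
Log2 fold change, MOG KO minus WT, of the 7 tested genes with its 95% interval (black point and line), and the 6 values that each leave out 1 library (red ticks). The interval of Tcf7 lies below 0 before adjustment, the other 6 intervals include 0, and the ticks of Lef1, Foxo1 and Id2 fall on both sides of 0.

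Of 15 other regulators of lymphocyte quiescence, 4 were present in all 6 libraries at 10 RPM or more and 1 in none. Among the 12 tested, none passed, 5 were positive and 7 negative, with a median of -0.04. Btg1, an antiproliferative gene that is also chosen here after its values were seen, had 586, 512 and 588 RPM across WT libraries, and 534, 611 and 576 RPM across those of MOG KO (-0.04 ± 0.52). Peli1, a ubiquitin ligase that restrains T cell activation, had 511, 427 and 690 RPM across WT libraries, and 212, 0.229 and 322 RPM across those of MOG KO without overlap (-1.69 ± 1.75, adjusted p = 1 in edgeR). Tob2, of the same antiproliferative family as Btg1, had 1.84, 39.8 and 113 RPM across WT libraries, and 254, 355 and 15.6 RPM across those of MOG KO (1.86 ± 2.14). Across the 10 partner and target lists together, 59 of 105 genes were tested and none passed. Of these, 3 (5.08%) were lower in every MOG KO library (Ccr7, Elk4 and Peli1) and 2 (3.39%) higher in every one (Sgk1 among them), shares beside 4.57% and 5.97% of all genes tested. For Ccr7 the groups were apart only by 2.68 RPM in WT replicate 2 against 2.32 RPM in MOG KO replicate 3, both under 10 RPM.

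Levels can be compared between genes only per length, here as RPM per kb of GENCODE exons. Ets1 was the highest of the 10 genes, at 149 ± 38.5 RPM per kb (SD over 6 libraries), and lay above Foxo1, the next, in 6 of 6 libraries, by 95.3 ± 48.8 RPM per kb. Foxo1 (53.3 RPM per kb), Tcf7 (45.4), Id2 (35.4), Klf3 (30.8), Satb1 (27.6), Lef1 (22) and Id3 (10.7) followed, and each neighbour in this order differed by less than the SD of the difference between them. Bach2 was at 0.00873 RPM per kb and Foxo3 at 0. Scaled by the longest annotated transcript instead, Ets1 stayed first and Id3, Bach2 and Foxo3 stayed last in that order, while Satb1 moved from place 6 to place 2. Within WT, Tcf7 was at 109, 127 and 35.7 RPM per kb, above Foxo1 (66.1, 68.4 and 19.2) and below Ets1 (179, 131 and 200.4) in each of the 3 libraries. The place of Tcf7 below Foxo1 over all 6 libraries thus includes its values near 0 in MOG KO.

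**Figure D4:**
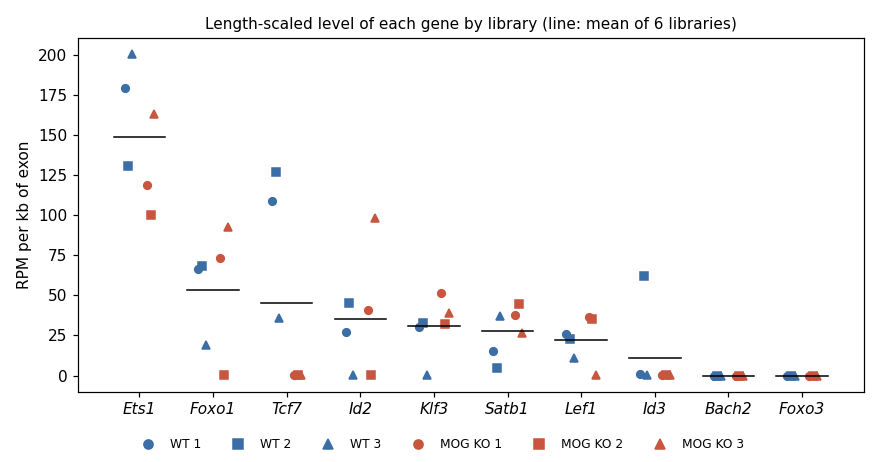
RPM per kb of exon of each gene in the 3 WT (blue) and 3 MOG KO (red) libraries on a linear axis, with the symbol marking the replicate number and the black line the mean of the 6 libraries, in descending order. Ets1 is above Foxo1 in every library, and the points of the genes from Foxo1 to Lef1 overlap.

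The genes whose levels followed each of the 7 tested genes most closely were found by Pearson's r of log2(RPM + 1) over the 6 libraries. All points share the library and its depth, so r is a description. Tcf7 was followed by Fam149b and Adss (r = 0.996 for both), and 43 tested genes had an r of 0.95 or more to it. Lef1 was followed by Ddx39 and Ddx41 (0.994 for both, 35 genes), Foxo1 by Pgam5 (0.994) and Dcaf8 (0.992, 20 genes), and Id2 by Tespa1 and Ndufs5 (0.996 for both, 64 genes). Klf3 was followed by Surf4 (0.999) and Cd3g (0.998), and 141 genes reached 0.95. Surf4, like Klf3 and Cd3g, was near 0 in WT replicate 3 alone (1.98 RPM). For the 2 genes present in every library the count was lowest, with 2 genes for Satb1 (Usp25 at 0.971 and Marf1 at 0.962) and 1 for Ets1 (Pisd-ps3 at 0.998, then Rbm26 at 0.949). Pisd-ps3 is a pseudogene, so its reads may be shared with its parent gene. Marf1 stayed under 10 RPM in every library.

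The 10 genes are protein-coding. On GRCm38 they lie on chromosome 11 from 52246527 to 52283383 (Tcf7, Entrez 21414), chromosome 3 from 131110297 to 131224357 (Lef1, 16842) and from 52268337 to 52350109 (Foxo1, 56458), chromosome 4 from 32238413 to 32586109 (Bach2, 12014) and from 136143822 to 136145392 (Id3, 15903), and chromosome 17 from 51736187 to 51833290 (Satb1, 20230). Id2 (15902) lies on chromosome 12 from 25093799 to 25096092, Klf3 (16599) on chromosome 5 from 64803521 to 64832901, Foxo3 (56484) on chromosome 10 from 42181845 to 42276695 and Ets1 (23871) on chromosome 9 from 32636241 to 32757820.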

How the data were processed

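RNA from 500 Tregs per library was copied to cDNA with a SMARTer kit, amplified by 15 cycles of PCR and read as single 100-base reads, per the labels' protocols. The chemistry carries no molecular identifiers. The authors deposited whole-number counts of exon reads per gene, not normalised, and a normalised table in reads-per-million (RPM), whose values equal each count over its column total. STAR 2.3.1, R 3.2.2 and build mm10 are named in the submitters' processing notes. The gene models, read counter and strand setting used were not given in the sources used here. 1 row without a symbol held 0.00139% of the counts.

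Counts were tested in edgeR 4.0.16 (R 4.3.3) with filterByExpr, TMM scaling and a robust quasi-likelihood fit of genotype, over 4088 genes (17.2% of the table), with Benjamini-Hochberg adjustment at 0.05. The SE is the absolute log2 fold change over the square root of F. Pooled ratios have exact Clopper-Pearson intervals. Alternatives were DESeq2 1.42.0, its size factors in edgeR, limma-voom (limma 3.58.1), no filter, a filter of 50 counts in 3 libraries, a replicate block and leaving out each library. Counts were also simulated from a negative binomial model at the spread of these libraries (3835 genes). Changes were placed only in genes above the median level. Of 100 changes each, edgeR recovered 0% of 4-fold and 44% of 64-fold ones, with 3 false calls. Recovery in genes of lower level was not simulated, nor was it checked that the model gives values as uneven between libraries as these.

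Coordinates and sequences are from RefSeq GRCm38.p6 and exon lengths from GENCODE M21, matched by Entrez identifier. The 10 genes and the partner lists were chosen with earlier results of these data known. Named are the 10 genes, Foxp3 and the other Treg and T cell markers, Mog and the 2 genes of smallest p per list. Il7r, Ccr7, S1pr1, Klf2 and the 2 genes of highest r per tested gene are also named. Other names describe a count or are said to be chosen after their values were seen. A few genes chosen in this way are left out of the text.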

Additional observations from a re-analysis of the deposited data

How the results depend on the processing

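No gene passed the threshold in edgeR under any alternative run or in limma-voom, while DESeq2 called 744 genes and put Tcf7 past the threshold (log2 fold change -7.53). The signs of Ets1, Satb1 and Klf3 held under all alternatives, as did that of Tcf7, whose groups do not overlap. The sizes varied more, with Klf3 from 0.40 (without WT replicate 3) to 2.71 (limma-voom). Satb1 ran from 0.36 (without WT replicate 2) to 1.89 (without WT replicate 3). Ets1 ran from -0.72 (without MOG KO replicate 3) to -0.24 (limma-voom). Lef1 was -1.23 with limma-voom and -0.89 with the replicate block, and ran from -0.19 to 0.83 when 1 library was left out. Foxo1 was -2.03 with limma-voom and -0.63 with the block, and ran from -0.53 to 0.69. Id2 ran from -0.21 to 1.76. The cause was not tested. The replicate numbers are not said to pair libraries, and the deviations of same-numbered libraries correlated at -0.022, -0.0022 and -0.018. With the block, Tcf7 had an adjusted p = 1 in edgeR, and 0 genes passed. Of 120 list medians under alternatives, 110 moved by less than the spread between libraries, but 28 had the opposite sign, in 9 of the 10 lists. These were 7 of 12 for the bZIP genes, 6 for the genes that set where FOXO proteins reside, 4 each for the FOXO1 targets and the E proteins, 2 each for the ETS and quiescence genes, and 1 each for the TCF/LEF cofactors, the KLF genes and the effector factors. No direction is read from a list's median. The 2 genes present in all 6 libraries were 3 at a threshold of 3 RPM or without WT replicate 3, MOG KO replicate 2 or MOG KO replicate 3 (a choice made after seeing the data). With log2(RPM + 10), 21 genes in place of 43 had an r of 0.95 or more to Tcf7. Bach2 and Foxo3 were under the floor of 3 counts in all 6 libraries, so their levels were not detectable at this depth.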

Other observations

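Of 10 transcription factors of effector and helper differentiation, 2 were present in all 6 libraries. Gata3, the factor of type 2 helper cells that Tregs also express, had 319, 337 and 564 RPM across WT libraries, and 245, 340 and 495 RPM across those of MOG KO (a log2 difference of -0.25 ± 0.90), and Maf, a factor of interleukin 10 production, 189, 218 and 314 RPM and 421, 324 and 296 RPM (0.44 ± 1.19). Both were chosen after their values were seen. Of the 5 genes tested none passed in edgeR, with 3 positive, 2 negative and a median of 0.44 that was -0.01 without MOG KO replicate 3. Rora, which encodes a nuclear receptor of helper T cells, had 854, 252 and 338 RPM across WT libraries, and 399, 2.98 and 5.22 RPM across those of MOG KO (-1.94 ± 1.94), and Ikzf3, which encodes Aiolos, 642, 637 and 2.27 RPM and 583, 788 and 716 RPM (0.72 ± 1.37).

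Of 13 bZIP genes, which include the AP-1 factors that BACH2 competes with, 2 were present in all 6 libraries, and of 6 tested none passed, with 3 positive, 3 negative and a median of -0.01. Junb had 542, 430 and 535 RPM across WT libraries, and 431, 375 and 254 RPM across those of MOG KO (-0.58 ± 0.76). Jun had 36.8, 32.2 and 1.13 RPM across WT libraries, and 553, 21.3 and 405 RPM across those of MOG KO (3.79 ± 2.17). Without MOG KO replicate 1 the median of the list was -2.57, with 3 genes positive and 5 negative.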
